A study of Drosophila melanogaster with 6 samples.

Results

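Fat bodies of larvae fed 4-hydroxytamoxifen (4-HT) were compared with fat bodies of larvae raised without it, which used 4 of the 6 RNA-seq libraries of the study, 2 in each group. The 4 libraries were taken by the column names of the deposited count table, and each was tied to its sample through the labels. In both groups the larvae were males at the wandering L3 stage (Drosophila melanogaster), grown at 25 °C on cornmeal, molasses and agar. The control group had plain food, and the 4-HT group had food with 25 µM 4-HT. Every library, control libraries included, pooled fat bodies of 18 larvae, 3 from each of 6 transgenic lines. All 6 lines were y,w and carried at the ZH51C site a transgene with the hsp70 promoter and the Dam methyltransferase gene, interrupted by a 4-HT intein at L127C. In 1 line Dam stood alone, and in the others it was fused to PC, H1, HP1, MRG15 or BRM. The titles call the controls "wt", but no library came from larvae without a transgene. Because lines were pooled within each library, no difference can be assigned to a single fusion.

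4-HT is the active metabolite of tamoxifen and a ligand of vertebrate oestrogen receptors. In these lines it is the agent that lets the intein splice itself out, so that Dam becomes active. The 4-HT group thus differed from the controls in the agent and in active Dam or Dam fusions together. Their effects on transcript levels cannot be told apart here. The nearest Drosophila relative of the oestrogen receptors is ERR, a regulator of carbohydrate metabolism in larvae. The larval fat body stores lipid and glycogen, makes the larval serum proteins, secretes antimicrobial peptides, and clears foreign compounds through cytochrome P450 enzymes, glutathione S-transferases (GSTs), UDP-glycosyltransferases (UGTs) and efflux pumps.

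The 4 fat body libraries held between 25860088 and 65802288 counted reads. Values are given as CPM, counts scaled to 1000000 reads of the TMM-adjusted library size, with scaling factors of 0.547 to 0.614 in fat body. Lsp2, a storage protein gene that marks the labelled tissue, stood at 219885 and 271036 CPM in the controls and 250566 and 251789 CPM with 4-HT, against 40.4 CPM in the first brain library. Control library 1 stood apart. It carried salivary gland glue protein transcripts, and 51 of 10029 tested genes were high in it alone, that is at least 4 times the level of the highest other fat body library with 0.5 CPM added to both. The same count was 10 for control library 2, 18 for 4-HT library 1 and 10 for 4-HT library 2. The 89 genes high in a single library stayed in the tests but were left out of the counts of separated genes, which cover the other 9940. Control library 2 correlated more closely with 4-HT library 1 (r = 0.983, log2 CPM over 10029 genes) than with control library 1 (r = 0.964). In a pooled tissue sample, fewer cells of a type and less RNA per cell cannot be told apart.

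No gene passed the test between 4-HT and control fat body. edgeR's quasi-likelihood test with Benjamini-Hochberg adjustment called 0 of 10029 genes (0.0%) at an adjusted p under 0.05, and the smallest adjusted p was 0.284. An unadjusted p under 0.05 was reached by 596 genes (5.94%), of which 213 (2.12%) were higher and 383 (3.82%) lower with 4-HT. DESeq2, run on the same counts as an alternative, called 23 genes higher (0.22% of the 10432 it adjusted) and 21 lower (0.201%). The median log2 fold change was 0.01. With 2 libraries in each group, an exact permutation test of a single gene cannot go below a two-sided p of 0.333.

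The rank of the 4 libraries gives a second description. Both 4-HT libraries stood above both controls in 1541 of the 9940 genes compared (15.5%) and below both in 1443 (14.5%), or 30.0% in both directions. Of the ways to label 4 libraries 2 against 2, a share of 0.333 separates a gene without ties in 1 direction or the other. The share seen was no larger, so separation alone is not read as an effect of 4-HT. Genes higher with 4-HT were 51.6% of those separated, but the balance moved with the scaling, to 68.0% (2153 above, 1011 below) with library size alone and 40.3% (1153 and 1708) with upper quartile scaling. List counts below are read against the TMM shares of 15.5% and 14.5%. Most of these gaps were narrow. The lower library of the higher group exceeded the higher library of the lower group by at least 1.5 times in 43 genes on the 4-HT side (0.433%) and 62 on the control side (0.624%), and by at least 2 times in 14 (0.141%) and 15 (0.151%). Of the 44 genes called by DESeq2, 21 separated upwards and 18 downwards when those high in a single library were left out. Among the 44 were 5 genes high in a single library: ng3, CG11300 and BBS4 in control library 1, and CG34206 and CG34384 in 4-HT library 1.

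**Figure D1:**
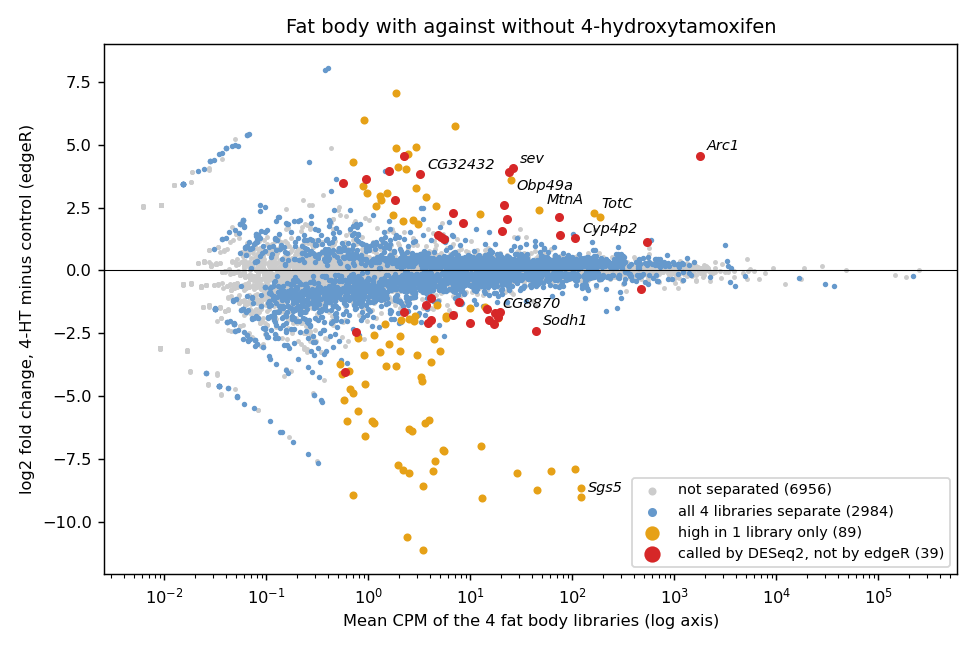
Each point is 1 tested gene, with the mean CPM of the 4 fat body libraries on a log axis against the edgeR log2 fold change of 4-HT minus control. Colours mark genes whose libraries do not separate, genes whose libraries separate, genes high in 1 library only, and the other genes called by DESeq2. Arc1, sev, Obp49a and CG32432 lie highest among the labelled DESeq2 calls and Sodh1 low, while glue gene Sgs5, high in control library 1 only, lies far below them.

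DESeq2 called 8 genes both with all libraries and with each fat body library left out in turn. Of these, 5 were higher with 4-HT: Arc1, sev, Obp49a, CG1607 and CG32432. The other 3 were lower: Sodh1, CG8870 and CG9813. The ranges of adjusted p given below run over all alternative settings, edgeR and DESeq2 fits together. They are not ranges of the DESeq2 value alone. Each of the 44 DESeq2 calls had an adjusted p of 1 under at least 1 alternative setting, so the ranges all end there.

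Arc1 (FBgn0033926) encodes a Gag-like protein, derived from a retrotransposon, that forms capsids around its own mRNA and is known from synapses. It stood at 225 and 61.3 CPM in the control libraries and at 1941 and 4833 CPM in the 4-HT libraries. The 4-HT libraries lay far above both controls, while the libraries of each group also differed from each other by more than 2 times. The log2 fold change was 4.56 (SE 0.75; edgeR adjusted p = 0.529; DESeq2 adjusted p = 3.43e-11, with a range of 3.36e-24 to 1 over the alternatives). The brain libraries, from larvae without 4-HT, had 35.0 and 30.6 CPM, below both fat body controls. Its neighbour in the gene family, Arc2, showed no such gap, with 7.99 and 2.55 CPM in the controls and 3.09 and 9.72 CPM with 4-HT, and its groups overlapped.

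sev (FBgn0003366) encodes Sevenless, the receptor tyrosine kinase that specifies the R7 photoreceptor. Its level was 3.17 and 2.69 CPM in the controls and 70.4 and 27.8 CPM with 4-HT. The controls were close together and the 4-HT libraries were apart, with library 1 the higher. The log2 fold change was 4.07 (SE 0.47; edgeR adjusted p = 0.284; DESeq2 adjusted p = 2.91e-14, range 7.80e-36 to 1). The brain libraries had 28.4 and 25.3 CPM, close to 4-HT library 2 and below 4-HT library 1.

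Obp49a (FBgn0050052), an odorant-binding protein gene known from gustatory organs, stood at 3.43 and 2.58 CPM in the controls and 19.5 and 69.7 CPM with 4-HT. Here 4-HT library 2 was the higher of its pair, the reverse of sev. The log2 fold change was 3.91 (SE 0.61; edgeR adjusted p = 0.476; DESeq2 adjusted p = 4.62e-08, range 5.28e-26 to 1). In brain it was near 0, at 0.101 and 0.111 CPM.

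CG1607 (FBgn0039844), annotated as an amino acid transporter, had 26.5 and 28.8 CPM in the controls and 169 and 72.3 CPM with 4-HT. Both 4-HT libraries were clear of the controls, with library 1 the higher, for a log2 fold change of 2.13 (SE 0.39; edgeR adjusted p = 0.608; DESeq2 adjusted p = 2.23e-04, range 5.49e-17 to 1). The level in brain was 136 and 127 CPM. CG32432 (FBgn0052432) was close to 0 in the controls, at 0.132 and 0.610 CPM, and stood at 7.80 and 4.38 CPM with 4-HT, with a log2 fold change of 3.84 (SE 0.54; edgeR adjusted p = 0.424; DESeq2 adjusted p = 6.95e-08, range 4.04e-09 to 1). Its brain libraries held 21.1 and 27.6 CPM, several times the level in 4-HT fat body.

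**Figure D2:**
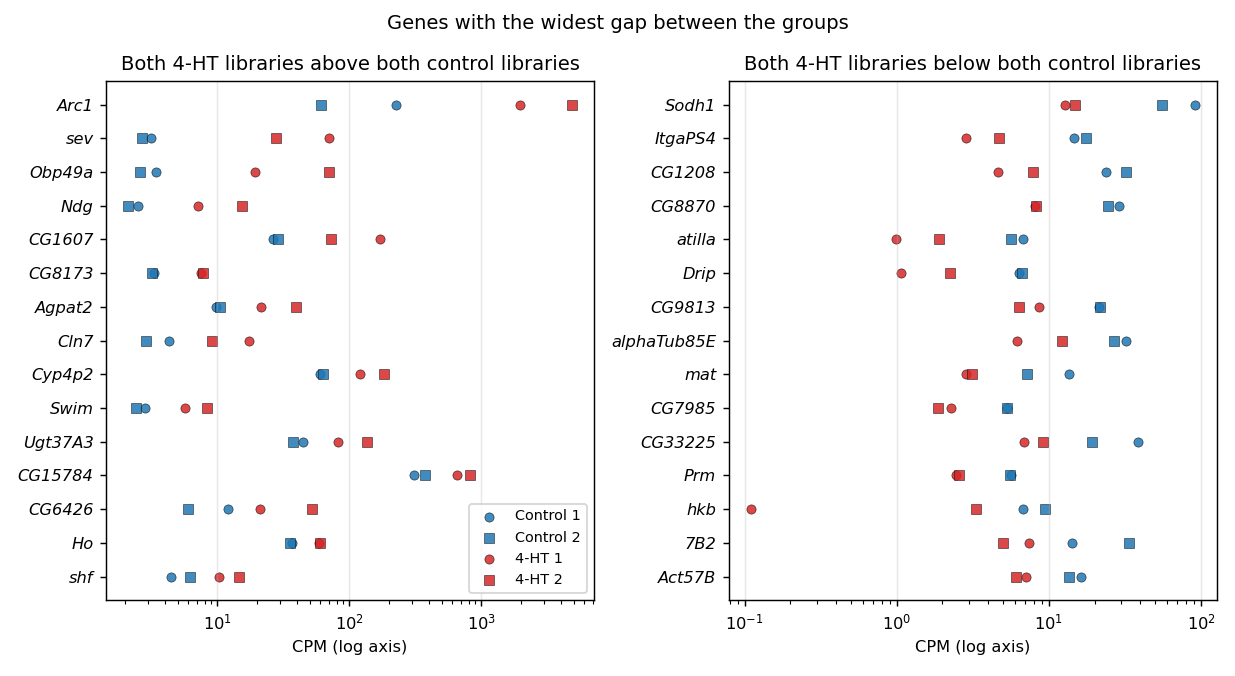
CPM on a log axis in each of the 4 fat body libraries for the 15 genes in each direction with the widest gap between groups, among named genes that reached 5 CPM in both libraries of the higher group. Blue marks the control libraries and red the 4-HT libraries, with circles for library 1 and squares for library 2. In every row the colours are separate, and Arc1 and sev on the left and Sodh1 on the right have the widest gaps.

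Further genes among the 15 widest gaps on the 4-HT side were of several kinds. Ndg, which encodes the basement membrane protein nidogen, had 2.51 and 2.12 CPM in the controls and 7.10 and 15.3 CPM with 4-HT (log2 fold change 2.29, SE 0.40; DESeq2 adjusted p = 0.00199, range 5.34e-05 to 1). Cln7, the homologue of a human lysosomal membrane protein gene mutated in neuronal ceroid lipofuscinosis, had 4.29 and 2.87 CPM in the controls and 17.3 and 9.05 CPM with 4-HT (log2 fold change 1.89, SE 0.37; DESeq2 adjusted p = 0.0107, range 9.87e-04 to 1). Ho, the heme oxygenase gene, was tight in both groups, with 36.5 and 35.5 CPM in the controls and 58.9 and 59.8 CPM with 4-HT, yet neither tool called it (log2 fold change 0.72, SE 0.15; edgeR adjusted p = 0.699; DESeq2 adjusted p = 0.0773).

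CG8173 was as tight, with 3.30 and 3.19 CPM in the controls and 7.54 and 7.79 CPM with 4-HT (DESeq2 adjusted p = 0.0107, range 0.0107 to 1). Swim, which encodes a secreted Wingless-interacting protein, had 2.84 and 2.44 CPM against 5.66 and 8.31 CPM with 4-HT (DESeq2 adjusted p = 0.0113, range 0.00449 to 1). The gene shf, for a secreted protein that helps Hedgehog spread, had 4.49 and 6.24 CPM in the controls and 10.3 and 14.5 CPM with 4-HT, and was called by neither tool (DESeq2 adjusted p = 0.127, range 0.0446 to 1). Of these 3 genes, only CG8173 was tight in both groups. The log2 fold change was 1.24 (SE 0.18) for CG8173, 1.42 (SE 0.25) for Swim and 1.20 (SE 0.25) for shf. Among the genes at higher levels, CG15784 had 309 and 372 CPM in the controls and 655 and 822 CPM with 4-HT (log2 fold change 1.12, SE 0.25; DESeq2 adjusted p = 0.0113, range 0.00374 to 1).

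On the control side the widest gap belonged to Sodh1 (FBgn0024289), a sorbitol dehydrogenase gene of the polyol pathway. It stood at 90.8 and 55.5 CPM in the controls and 12.7 and 15.0 CPM with 4-HT. The 4-HT libraries were close together and the controls apart, with control library 1 the higher. The log2 fold change was -2.40 (SE 0.26; edgeR adjusted p = 0.284; DESeq2 adjusted p = 4.60e-10, range 5.77e-11 to 1), and DESeq2 still called it without control library 1 (adjusted p = 8.49e-06). Its paralogue Sodh2, whose reads may be shared with it, had 27.8 and 12.6 CPM in the controls and 7.72 and 12.5 CPM with 4-HT, so that control library 2 and 4-HT library 2 were almost level.

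CG8870 (FBgn0038144) and CG9813 (FBgn0038143), next to each other among the protein-coding genes of genome release 6, were both lower with 4-HT. CG8870 had 29.0 and 24.6 CPM in the controls and 8.17 and 8.26 CPM with 4-HT (log2 fold change -1.71, SE 0.18; edgeR adjusted p = 0.284; DESeq2 adjusted p = 2.75e-08, range 2.75e-08 to 1). CG9813 had 21.3 and 21.8 CPM in the controls and 8.57 and 6.38 CPM with 4-HT (log2 fold change -1.53, SE 0.19; edgeR adjusted p = 0.363; DESeq2 adjusted p = 1.54e-05, range 1.54e-05 to 1). In both genes the spread within each group was small beside the distance between groups. The brain libraries distinguished the neighbours, with 0.470 and 0.569 CPM of CG8870 and 20.2 and 22.7 CPM of CG9813.

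ItgaPS4 (FBgn0034005), an integrin alpha subunit gene, had 14.6 and 17.5 CPM in the controls and 2.87 and 4.67 CPM with 4-HT (log2 fold change -2.08, SE 0.28; DESeq2 adjusted p = 1.30e-04, range 1.30e-04 to 1). CG1208 (FBgn0037386) had 23.7 and 32.2 CPM in the controls and 4.63 and 7.92 CPM with 4-HT (log2 fold change -2.15, SE 0.33; DESeq2 adjusted p = 2.04e-04, range 3.36e-05 to 1). In both, control library 2 was the higher control. DESeq2 called both without control library 1 (adjusted p = 0.00712 for ItgaPS4 and 0.00188 for CG1208) but neither without control library 2 (0.0671 and 0.0639). The authors' deposited table gives an adjusted p under 0.05 to 3 of 13109 genes (0.0229%), which are ItgaPS4, CG1208 and CG8870. For ItgaPS4 the authors' deposited table has an adjusted p of 0.0110 and a log2 fold change of -2.09. For CG1208 the authors' deposited table has 0.0148 and -2.16, and for CG8870 it has 0.0381 and -1.70.

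Further genes on the control side were of several kinds. Drip, an aquaporin gene, had 6.34 and 6.68 CPM in the controls and 1.07 and 2.23 CPM with 4-HT (log2 fold change -1.97, SE 0.41; DESeq2 adjusted p = 0.0322, range 0.0165 to 1). The alpha tubulin gene alphaTub85E had 32.3 and 26.8 CPM in the controls and 6.22 and 12.3 CPM with 4-HT (DESeq2 adjusted p = 0.0351, range 5.10e-04 to 1). In 7B2, which encodes a helper protein of a prohormone convertase, control library 2 was the high one: the controls held 14.2 and 33.8 CPM and the 4-HT libraries 7.36 and 5.02 CPM (log2 fold change -1.97, SE 0.42; DESeq2 adjusted p = 0.0107, range 1.92e-08 to 1). None of these 3 passed edgeR's test, and without control library 1 DESeq2 still called 7B2 (1.92e-08) but neither Drip (0.513) nor alphaTub85E (0.741). Their log2 fold changes stayed about as large there, at -2.0 for Drip, against -1.97, and -1.53 for alphaTub85E, against -1.67.

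Several DESeq2 calls were of scarce transcripts. TbCMF46, the homologue of a protein of ciliary motility, had 0.132 and 0.215 CPM in the controls and 1.51 and 7.07 CPM with 4-HT (log2 fold change 4.55, SE 1.07; DESeq2 adjusted p = 0.0122, range 7.91e-04 to 1). CG6788 was tighter, with 0.132 and 0.144 CPM in the controls and 1.21 and 2.28 CPM with 4-HT (log2 fold change 3.63, SE 0.66; DESeq2 adjusted p = 0.0495). On the control side, dUTPase, whose product keeps uracil out of DNA, had 6.34 and 4.84 CPM in the controls and 2.72 and 2.52 CPM with 4-HT (log2 fold change -1.08, SE 0.20; DESeq2 adjusted p = 0.0338). Another, CG15369, was abundant and tight, with 619 and 572 CPM in the controls and 351 and 359 CPM with 4-HT (log2 fold change -0.75, SE 0.24; DESeq2 adjusted p = 0.0338). In all 4 of these genes the groups were apart, and edgeR called none of them.

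Of the 44 DESeq2 calls, 15 were called without control library 1, and 3 had no symbol in the gene tables. Among the genes that lost the call was fkh, a transcription factor gene of the salivary gland, with 1.65 and 0.897 CPM in the controls and 0.221 and 0.223 CPM with 4-HT. Its controls both stood above the 4-HT libraries, and its log2 fold change was -2.44 (SE 0.37; DESeq2 adjusted p = 0.00189, 0.0910 without control library 1, range 3.30e-04 to 1). Without that library its log2 fold change was -2.0. The brain libraries had far more fkh, at 40.3 and 41.1 CPM.

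Genes for enzymes and pumps that clear foreign compounds lay on both sides of the comparison. Of 69 tested P450 genes, edgeR called 0, as in every other list, and DESeq2 called 1, Cyp4p2. Both 4-HT libraries were above the controls in 11 of the 69 P450 genes (15.9%, against 15.5% of all genes) and below in 8 (11.6%, against 14.5%), so the shares were near the background. The median log2 fold change was 0.08. Cyp4p2 had 60.3 and 63.1 CPM in the controls and 120.4 and 182 CPM with 4-HT (log2 fold change 1.30, SE 0.28; edgeR adjusted p = 0.699; DESeq2 adjusted p = 0.0107, range 7.15e-04 to 1). Its close relative Cyp4p1 ranked the same way, with 19.9 and 22.3 CPM in the controls and 29.8 and 51.0 CPM with 4-HT, and reads may be shared between them.

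Cyp6 genes went both ways. Cyp6g1, known for insecticide resistance, had 909 and 1301 CPM in the controls and 1680.1 and 1476 CPM with 4-HT (log2 fold change 0.51, SE 0.27). Cyp6d4 had 25.5 and 28.3 CPM in the controls and 39.3 and 41.9 CPM with 4-HT (log2 fold change 0.59, SE 0.15). Cyp6d5, in contrast, had 461 and 183 CPM in the controls and 122 and 86.6 CPM with 4-HT (log2 fold change -1.63, SE 0.52). Much of the Cyp6d5 difference lay in control library 1, and without it the log2 fold change was -0.81. The edgeR adjusted p was 0.858, 0.835 and 0.835 for Cyp6g1, Cyp6d4 and Cyp6d5.

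Among 33 tested GST genes, 3 separated upwards (9.09%, against 15.5% of all genes) and 6 downwards (18.2%, against 14.5%), with a median log2 fold change of -0.20. Without control library 1 that median was 0.14, so its sign turned. GstD1, which is known to respond to oxidants, had a high value in 1 library: the controls held 602 and 209 CPM and the 4-HT libraries 187 and 192 CPM. Only control library 1 stood apart there, and the log2 fold change went from -1.10 to -0.14 without it. GstO3 ranked the other way, with 145 and 119 CPM in the controls and 180.0 and 194 CPM with 4-HT (log2 fold change 0.50, SE 0.19; edgeR adjusted p = 0.835).

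UGT genes, whose products attach sugars to small molecules, separated upwards in 7 of 22 (31.8%, against 15.5% of all genes) and downwards in 3 (13.6%, against 14.5%), so the downward share was near the background. Their summed level was 495 and 518 CPM in the controls and 625 and 693 CPM with 4-HT, and the median log2 fold change was 0.34, or 0.46 without control library 1. Ugt37A3, the single member that DESeq2 called, had 44.3 and 37.2 CPM in the controls and 81.7 and 137 CPM with 4-HT (log2 fold change 1.43, SE 0.43; edgeR adjusted p = 0.835; DESeq2 adjusted p = 0.0193, range 0.00774 to 1). Ugt36A1 was next by gap, with 12.1 and 10.9 CPM in the controls and 15.2 and 21.4 CPM with 4-HT.

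Among 25 regulators, esterases and efflux pumps, 5 separated upwards (20%, against 15.5% of all genes) and 1 downwards (4%, against 14.5%). The drug efflux pump gene Mdr49 had 88.2 and 83.4 CPM in the controls and 118 and 96.5 CPM with 4-HT. In the esterase gene alpha-Est5 the levels were 23.6 and 19.2 CPM against 28.5 and 38.8 CPM. Of 20 genes of oxidative stress defence, 4 separated upwards (20%, against 15.5%) and 1 downwards (5%, against 14.5%). The catalase gene Cat was among the 4, with 1450.4 and 1314 CPM in the controls and 1810.2 and 1681 CPM with 4-HT, a log2 fold change of 0.34 (SE 0.21; edgeR adjusted p = 0.905). Neither tool called any member of the 2 lists.

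Genes of lipid synthesis, storage and lipolysis separated upwards in 7 of 27 (25.9%, against 15.5% of all genes) and downwards in 0, with a median log2 fold change of 0.26 (0.22 without control library 1). DESeq2 called 1 of them higher, Agpat2 (against 0.22% of all genes it adjusted), and edgeR called 0. In edgeR, 4 were higher with an unadjusted p under 0.05, against 2.12% of all genes. Agpat2, for an acyltransferase on the way to phospholipids and triglycerides, had 9.70 and 10.5 CPM in the controls and 21.6 and 39.1 CPM with 4-HT (log2 fold change 1.59, SE 0.31; edgeR adjusted p = 0.630; DESeq2 adjusted p = 0.0107, range 1.57e-04 to 1). ATPCL, for ATP citrate lyase, which supplies acetyl-CoA for fatty acid synthesis, had 294 and 419.8 CPM in the controls and 642 and 1003 CPM with 4-HT (log2 fold change 1.20, SE 0.29; edgeR adjusted p = 0.835; DESeq2 adjusted p = 0.0566, range 0.00245 to 1).

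SREBP, the transcription factor of lipogenic genes, had 132 and 143 CPM in the controls and 193 and 219 CPM with 4-HT, a log2 fold change of 0.58 (SE 0.17; edgeR adjusted p = 0.835). Lsd-1, for the lipid droplet perilipin, had 2866 and 2846 CPM in the controls and 3547 and 3917 CPM with 4-HT, tight in both groups (log2 fold change 0.39, SE 0.20; edgeR adjusted p = 0.858). Hsl, for hormone-sensitive lipase, which breaks stored lipid down, also ranked higher with 4-HT, at 8.91 and 9.58 CPM against 12.9 and 11.0 CPM. The members on the 4-HT side thus held enzymes of synthesis and of lipolysis.

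Autophagy and lysosomal protease genes separated upwards in 12 of 24 (50%, against 15.5% of all genes) and downwards in 0 (against 14.5%), but each shift was small. That count of 12 fell to 9 under upper quartile scaling and reached 16 when only library size was used. The median log2 fold change was 0.19, and 0.19 without control library 1. No member was called by either tool, and 1 was higher with an unadjusted p under 0.05 in edgeR, against 2.12% of all genes. Atg8a, the marker of autophagosome membranes, had 388 and 362 CPM in the controls and 455 and 484 CPM with 4-HT (log2 fold change 0.32, SE 0.19). CtsL1, a cathepsin L gene, had 232 and 209 CPM in the controls and 276 and 410.0 CPM with 4-HT (log2 fold change 0.64, SE 0.24). ref(2)P, the p62 homologue that brings cargo to autophagosomes, had 218 and 302 CPM in the controls and 337 and 409 CPM with 4-HT (log2 fold change 0.52, SE 0.23). In Atg5, Atg16 and cathD, which also counted as separated, the groups almost touched.

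Among 13 genes of sterol and lysosomal lipid handling, 5 separated upwards (38.5%, against 15.5% of all genes) and 1 downwards (7.69%, against 14.5%). The sterol transporter gene Npc1a had 104 and 120.0 CPM in the controls and 148 and 131 CPM with 4-HT. The lipophorin receptor gene LpR1 had 2.18 and 2.44 CPM in the controls and 3.31 and 3.73 CPM with 4-HT, for a log2 fold change of 0.60 (SE 0.19; edgeR adjusted p = 0.835). NLaz, the homologue of apolipoprotein D, had 20.99 and 24.4 CPM in the controls and 64.6 and 30.9 CPM with 4-HT, and 4-HT library 1 carried most of that difference.

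**Figure D3:**
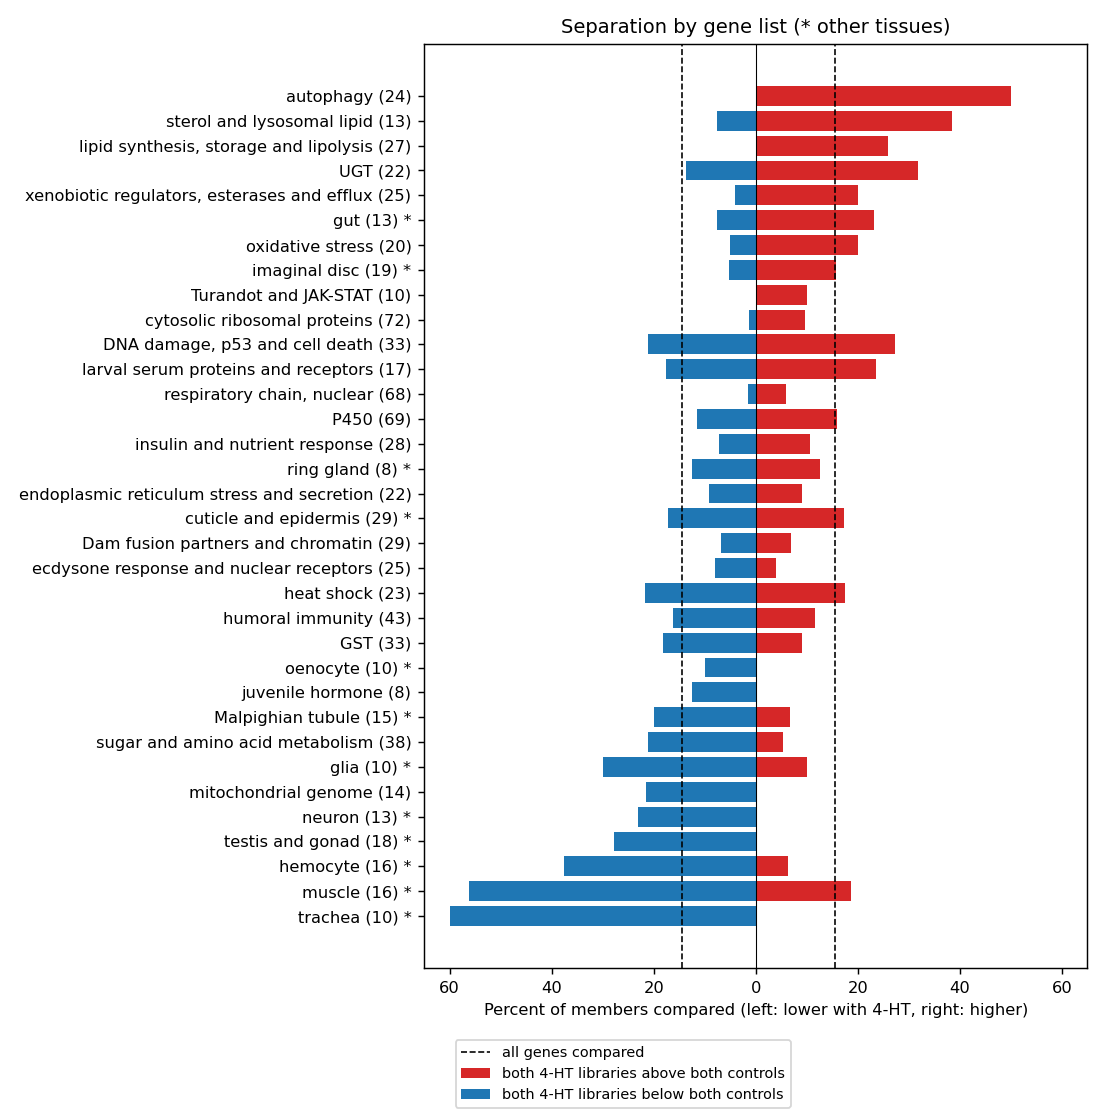
Percent of the compared members of each gene list in which both 4-HT libraries stood above both controls (red, right) or below both (blue, left), with the number compared in brackets. Dashed lines mark the same percents over all 9940 genes, 15.5% and 14.5%, a star marks markers of other tissues, and the salivary gland list is left out because 11 of its 13 tested members were high in control library 1 only. Autophagy extends farthest to the right, and trachea and muscle markers farthest to the left.

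Of 38 genes of sugar and amino acid metabolism, 2 separated upwards (5.26%, against 15.5% of all genes) and 8 downwards (21.1%, against 14.5%). The median log2 fold change of the list was 0.02, or 0.15 without control library 1, so the median did not follow the counts. Besides Sodh1, the widest gap was in ry, the xanthine dehydrogenase gene of purine breakdown, with 156 and 174 CPM in the controls and 120.0 and 98.3 CPM with 4-HT (log2 fold change -0.59, SE 0.21; edgeR adjusted p = 0.835). Pepck1, for the gluconeogenic enzyme phosphoenolpyruvate carboxykinase, had 3614 and 4531 CPM in the controls and 2716 and 3282 CPM with 4-HT (log2 fold change -0.44, SE 0.23; edgeR adjusted p = 0.858). Among 28 insulin and nutrient response genes, srl, for the PGC-1 homologue that drives mitochondrial gene expression, had 12.9 and 15.1 CPM in the controls and 8.28 and 8.06 CPM with 4-HT (log2 fold change -0.78, SE 0.15; edgeR adjusted p = 0.630; DESeq2 adjusted p = 0.151, range 0.151 to 1). Both groups of srl were tight and did not overlap.

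Transcripts of the mitochondrial genome separated downwards in 3 of 14 (21.4%, against 14.5% of all genes) and upwards in 0 (against 15.5%), with a median log2 fold change of -0.58, or -0.14 without control library 1. Their sum was 76080.0 and 59352 CPM in the controls and 55058 and 40021 CPM with 4-HT. The large ribosomal RNA, mt:lrRNA, made up much of it, with 36795 and 33553 CPM in the controls and 28049 and 21006 CPM with 4-HT (log2 fold change -0.52, SE 0.29; edgeR adjusted p = 0.892). Of 68 nuclear genes of the respiratory chain, 4 separated upwards and 1 downwards, and of 72 cytosolic ribosomal protein genes 7 and 1, shares below the background on both sides.

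The storage proteins, which the fat body makes in bulk at this stage, separated in part. Lsp1gamma had 221097 and 250310.0 CPM in the controls and 207212 and 202695 CPM with 4-HT, separated by a narrow gap (log2 fold change -0.20, SE 0.38). Lsp1beta had 194592 and 210795 CPM in the controls and 143188 and 194944 CPM with 4-HT, and its groups overlapped. Fbp1, the receptor gene for these proteins and a target of ecdysone, had 138611 and 168604 CPM in the controls and 209240.1 and 65479.8 CPM with 4-HT. The 4-HT libraries of Fbp1 were the highest and the lowest of the 4, so the spread within the group exceeded any difference between groups.

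Among the nuclear receptors and the genes of the fusion partners, most showed overlapping groups. ERR had 23.8 and 29.5 CPM in the controls and 25.5 and 31.4 CPM with 4-HT (log2 fold change 0.09, SE 0.18). The ecdysone receptor gene EcR had 164 and 322 CPM in the controls and 291 and 219 CPM with 4-HT (log2 fold change 0.07, SE 0.38). Both pairs of groups overlapped, as they did in 22 of the 25 genes compared of the ecdysone response and nuclear receptor list.

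Pc, the Polycomb gene, stood between 5.61 and 6.25 CPM in all 4 libraries, with overlapping groups. The HP1 gene had 35.6 and 31.2 CPM in the controls and 28.6 and 33.7 CPM with 4-HT, and brm, for the Brahma ATPase, had 60.3 and 72.5 CPM against 80.9 and 66.1 CPM. Groups overlapped in both. MRG15 separated, with 15.0 and 13.1 CPM in the controls and 17.0 and 16.6 CPM with 4-HT, but its log2 fold change was only 0.26 (SE 0.16; edgeR adjusted p = 0.905). These counts cannot tell transcripts of the endogenous gene from those of the transgene, which all libraries carry. Of 29 genes of the fusion partners and other chromatin proteins, 2 separated upwards (6.90%, against 15.5% of all genes) and 2 downwards (against 14.5%). The hsp70 gene Hsp70Ab, whose promoter family drives the transgenes, had 0 and 1.22 CPM in the controls and 1.95 and 3.19 CPM with 4-HT, near the limit of detection, and its reads may be shared among near-identical copies.

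Immune and stress genes were found on both sides. Of 43 humoral immunity genes, 5 separated upwards (11.6%, against 15.5% of all genes) and 7 downwards (16.3%, against 14.5%). The peptidoglycan recognition protein gene PGRP-SB1 had 16.6 and 37.5 CPM in the controls and 15.0 and 13.3 CPM with 4-HT. The signalling gene imd had 20.5 and 21.9 CPM against 25.0 and 30.5 CPM. Of 23 heat shock genes, 4 separated upwards (17.4%) and 5 downwards (21.7%), and of 22 endoplasmic reticulum stress genes 2 (9.09%) and 2, against the same 15.5% and 14.5%. Of 33 genes of DNA damage and cell death, 9 separated upwards (27.3%, against 15.5%) and 7 downwards (21.2%, against 14.5%). The effector caspase gene Drice was on the upper side, with 52.7 and 50.9 CPM in the controls and 64.3 and 59.4 CPM with 4-HT (log2 fold change 0.26, SE 0.16). The killer gene rpr stood at 0.132 and 0.144 CPM in the controls and 0.110 and 0.0742 CPM with 4-HT, near 0 in all 4.

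Of the 13 lists of markers of other tissues, those of muscle, trachea and hemocytes had the most members lower with 4-HT. Among 16 muscle genes, 9 separated downwards (56.2%, against 14.5% of all genes) and 3 upwards (18.8%, against 15.5%). Of the 9, 8 had a gap of at least 1.5 times, as did 0.624% of all genes on that side. The median log2 fold change was -1.16 (-0.67 without control library 1). Prm, for the thick filament protein paramyosin, had 5.68 and 5.53 CPM in the controls and 2.46 and 2.57 CPM with 4-HT (log2 fold change -1.15, SE 0.30; edgeR adjusted p = 0.835). The muscle actin gene Act57B had 16.3 and 13.5 CPM in the controls and 7.06 and 6.08 CPM with 4-HT (log2 fold change -1.18, SE 0.27; edgeR adjusted p = 0.818). The tropomyosin gene Tm2 had 4.22 and 2.76 CPM against 1.47 and 1.24 CPM, and the troponin T gene up had 7.26 and 5.13 CPM against 2.50 and 2.82 CPM. No muscle marker was at 0 in all 4 libraries, and both groups were low in these genes. The summed level of the list did not follow the groups, at 476 and 805 CPM in the controls and 869 and 464 CPM with 4-HT, because the titin-like gene bt made up most of it with 249 and 580.5 CPM against 643 and 261 CPM.

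Tracheal markers separated downwards in 6 of 10 (60.0%, against 14.5% of all genes) and upwards in 0 (against 15.5%). Their summed levels were 23.9 and 22.6 CPM in the controls and 19.4 and 15.2 CPM with 4-HT, none at 0 in all 4. The median log2 fold change was -0.78, or -0.42 without control library 1. The chitin deacetylase gene serp had 3.76 and 1.69 CPM in the controls and 1.10 and 1.21 CPM with 4-HT. Hemocyte markers separated downwards in 6 of 16 (37.5%, against 14.5%) and upwards in 1 (6.25%, against 15.5%). Their median log2 fold change was -0.66, but only -0.16 without control library 1. The sum was 2879.9 and 3155 CPM in the controls and 2594 and 2466 CPM with 4-HT, again with no marker at 0. The collagen IV genes Col4a1 and vkg, which fat body makes too, hold most of that sum. vkg had 615 and 683 CPM in the controls and 429.6 and 463 CPM with 4-HT. Hml, the marker of circulating plasmatocytes, had 48.6 and 16.1 CPM in the controls and 13.2 and 14.1 CPM with 4-HT, so that only control library 1 stood apart.

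The hemocyte marker DESeq2 called was atilla, which marks lamellocytes, with 6.73 and 5.63 CPM in the controls and 0.993 and 1.90 CPM with 4-HT (log2 fold change -2.08, SE 0.42; DESeq2 adjusted p = 0.0194, 0.864 without control library 1, where the log2 fold change was -1.94; range 0.0194 to 1). Both controls were several times above both 4-HT libraries. Against 14.5% and 15.5% of all genes, 5 of 18 testis and gonad markers separated downwards (27.8%) and 0 upwards, 3 of 13 neuronal markers (23.1%) and 0, and 3 of 10 glial markers and 1. The glial marker on the upper side was Gs2, a glutamine synthetase gene that fat body also expressed, with 134 and 109.9 CPM in the controls and 217 and 212 CPM with 4-HT (log2 fold change 0.82, SE 0.26; edgeR adjusted p = 0.835). The summed level of the glial list, of which Gs2 was a large part, was 429 and 522 CPM in the controls. With 4-HT it was 549 and 637 CPM, with none at 0. The median log2 fold change of the list went the other way, at -0.94, or -0.53 without control library 1. The summed level was 65.5 and 88.2 CPM in the controls and 97.6 and 53.4 CPM with 4-HT for the testis and gonad list, in which dhd and ORY were at 0 in all 4 libraries. For neuronal markers the sums were 557 and 618 CPM against 699 and 611 CPM, with none at 0. The part of carried-over tissue in the differences of other genes was not tested.

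Against 15.5% and 14.5% of all genes, gut markers had 3 of 13 separated upwards and 1 downwards, Malpighian tubule markers 1 and 3 of 15, and cuticle genes 5 and 5 of 29. The 30 tested cuticle genes had a median log2 fold change of -0.67, or -0.24 without control library 1. Imaginal disc markers gave 3 and 1 of 19, ring gland markers 1 and 1 of 8, and oenocyte markers 0 and 1 of 10. Turandot and JAK-STAT genes gave 1 and 0 of 10, juvenile hormone genes 0 and 1 of 8, and the wider list of larval serum proteins and receptors 4 and 3 of 17. In the last list DESeq2 called Obp44a, an odorant-binding protein gene, with 12.7 and 8.90 CPM in the controls and 5.59 and 3.49 CPM with 4-HT. Its adjusted p was 0.0370 in DESeq2 and 0.835 in edgeR. Without control library 1 its log2 fold change was -0.98, against -1.25. The brain libraries had far more Obp44a, at 2217 and 1832 CPM.

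Genes high in control library 1 alone were led by the salivary gland. Of the 23 salivary gland markers in the count table, 13 were tested, 11 of these were high in control library 1 only, and Eig71Ea, Eig71Ec, Eig71Ed and ng4 were at 0 in all 4 fat body libraries. The list summed to 2084 CPM in control library 1, 99.4 CPM in control library 2, and 75.9 and 60.4 CPM with 4-HT. Sgs7, for a small glue protein, had 487 CPM in control library 1 against 0.431, 0.515 and 0.668 CPM in the others. Eig71Ee, an ecdysone-induced gland gene, had 180.3 CPM against 0.502, 0.257 and 0.173 CPM. Brain library 1 also held more of both genes than brain library 2, with 14.1 against 0.0866 CPM of Sgs7 and 6.36 against 0.0742 CPM of Eig71Ee. As neighbours on the chromosome in genome release 6, Sgs7 and Sgs8, Sgs5 and Sgs5bis, and Sgs4 and Pig1 formed pairs in this set. So did genes outside the marker list, as in CG2127 with CG8701, CG17362 with CG9040, and CG10514 with CG11892.

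Not all of these genes were of the gland. The testis-specific beta tubulin gene betaTub85D had 5.28 CPM in control library 1 against 0.323, 0.221 and 0.173 CPM, and the extracellular matrix gene Ppn, for papilin, had 47.7 CPM against 11.3, 8.24 and 7.67 CPM. For all 51 genes, the other control resembled the 4-HT libraries more than it did control library 1, which is how they were chosen, and they are not counted as separated. Leaving them out before scaling and fitting left edgeR's count at 0.

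**Figure D4:**
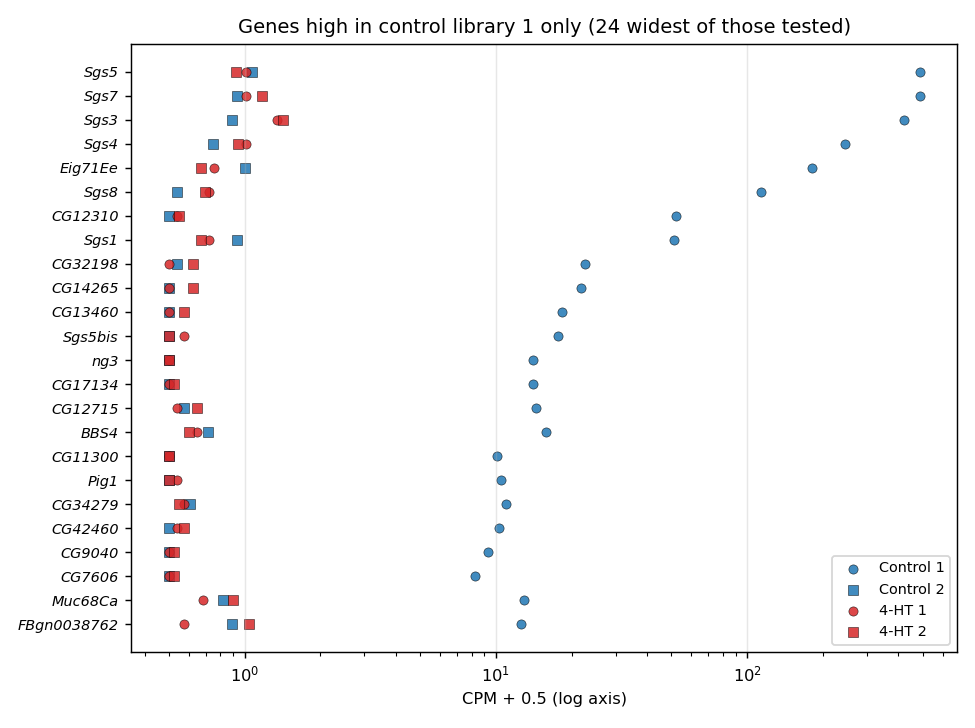
CPM plus 0.5 on a log axis in each fat body library for the 24 tested genes that stood highest in control library 1 over the other 3 libraries. Circles and squares mark libraries 1 and 2, blue the controls and red 4-HT. In every row the blue circle lies alone on the right, with Sgs5, Sgs7 and Sgs3 above 400 CPM there and below 1 CPM elsewhere.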

How the data were processed

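The deposited values are whole-number counts of reads per FlyBase gene, made by the authors and not scaled. The authors' deposited comparison of control and 4-HT fat body holds, per the file headers, a signal per group (the group's mean normalized count), a ratio (fold change) of those means, its log2 value, and an unadjusted and an adjusted p-value for each gene. Per the submitters' processing notes, TopHat, HTSeq and DESeq were used on build dm3, with no version named. How reads were assigned to genes and whether strand was used is not given in the sources used here. Values of overlapping, antisense or near-identical genes are therefore uncertain. The 6 libraries were labelled as 2 biological replicates in each of 3 groups. The labels do not say what kept replicates separate, so p-values measure the spread between these samples.

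Of 14869 gene identifiers, 13533 were given symbols from release 6 gene tables, and 1336 kept their identifier. Those 1336 took 4.63% to 5.32% of the counts of a fat body library. Genes passing filterByExpr (10029) were TMM-scaled and modelled in edgeR 4.0.16 (estimateDisp and glmQLFit, robust, then glmQLFTest, in R 4.3.3) over the 6 libraries together, with no covariate besides group (3 residual degrees of freedom). SE is the size of the log2 fold change divided by the square root of F. DESeq2 1.42.0 (Wald test, own size factors and filtering) was an alternative, and an adjusted p it did not give stayed missing. Tests were tried on simulated counts. A gene separated when both libraries of a group exceeded both of the other. Gaps were measured with 0.5 CPM added.

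The 35 gene lists, 22 of pathways and 13 of other tissues, held 1143 members found in the table, and 71 were not matched. The comparison, the lists and the tests were chosen with earlier results of these data known. Named were the 15 widest gaps in each direction among genes with a symbol and 5 CPM or more in both libraries of the higher group, the 2 widest gaps and the most abundant gene of each pathway list, the 2 most abundant markers of each other tissue, the 10 genes most confined to control library 1, and the fusion partner, EcR, ERR and storage protein genes. Some are left out. DESeq2 calls, Arc2 and further members of lists were named after their values were seen. Alternatives covered scaling, filters, tests, the replicate number as a block, and each library left out, where a group with a lone sample borrows its spread from the other groups.

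Replicate numbers were not shown to pair the libraries. The deviations from the group means correlated at r = -0.137 between control library 1 and 4-HT library 1, 0.188 between control library 1 and brain library 1, and -0.09 between 4-HT library 1 and brain library 1.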

Additional observations from a re-analysis of the deposited data

How the results depend on the processing

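edgeR's quasi-likelihood test called 0 genes in both directions with other scalings (RLE, upper quartile, library size alone), with a filter at 5 CPM, with the 4 fat body libraries alone, without robust estimation, with legacy=FALSE, without either brain library, and without the genes high in control library 1 only. Without the low count filter it called 0 higher and 2 lower, CG8870 and Sodh1. Leaving out single libraries gave 0 to 30 calls higher and 0 to 8 lower. Without control library 1 it called 1 and 4 genes, without control library 2 it called 0 and 5, without 4-HT library 1 it called 16 and 4, and without 4-HT library 2 it called 30 and 8. Sodh1 was among the calls in 3 of these 4 fits, and sev and Obp49a were among them in the fits without a 4-HT library.

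DESeq2's 23 genes higher and 21 lower became 14 and 19 without control library 1, 47 and 90 without control library 2, 59 and 49 without 4-HT library 1, 43 and 24 without 4-HT library 2, and 17 and 11 with the 4 fat body libraries alone. The scalings of list counts, the DESeq2 fits on fewer libraries, the edgeR fits without a brain library and the crossed numbers were chosen after seeing the data. With the replicate number as a block edgeR called 0 genes, with 452 at an unadjusted p under 0.05, and with the numbers crossed in the 4-HT group it called 0, with 773. The numbers were not shown to pair the samples.

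Separation held for 1541 genes upwards and 1443 downwards. It held for 1096 and 587 with a filter at 5 CPM, 2153 and 1011 with library size alone, 1153 and 1708 with upper quartile scaling, 43 and 62 with a gap of 1.5 times and 14 and 15 with a gap of 2 times. Leaving out 1 library, which asks less of a gene, gave 3247 to 3501 upwards and 2824 to 3534 downwards. The 51 genes high in control library 1 only became 212 at a fold of 2, 27 at a fold of 8, and 123 with 0.1 CPM added in place of 0.5. The cause of the other changes was not tested.

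For 44 genes followed, a set other than the 44 DESeq2 calls, all 1001 log2 fold changes under the alternatives kept their sign. A gene whose 4 libraries separate can hardly change sign when a library is left out, so that count is not read as support. Of 280 list medians, 249 moved by less than 1 SD and 31 by more.

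Each group had 2 libraries, and the control libraries correlated less closely with each other than control library 2 did with 4-HT library 1. Why edgeR's main fit called no gene was not tested.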

Other observations

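Apart from control library 1, each fat body library had its own few high genes, which were left out of the counts of separated genes. In 4-HT library 1, CG9812 stood at 576 CPM against 24.9 CPM in the other 4-HT library and 73.5 and 64.4 CPM in the controls. The neuronal transcription factor gene dan stood at 11.1 CPM there against 0.272, 0.0660 and 0.251 CPM. In 4-HT library 2, the metallothionein gene MtnA, known to respond to metals, stood at 142 CPM against 17.2 CPM in the other 4-HT library and 20.1 and 9.94 CPM in the controls. TotC, a stress-induced Turandot gene, stood at 471 CPM there against 69.3, 14.1 and 95.9 CPM. The lactate dehydrogenase gene Ldh stood at 8.16 CPM against 0.662, 0.924 and 1.26 CPM. In control library 2, kirre, a gene of myoblast fusion, stood at 14.5 CPM against 0.792, 0.625 and 0.618 CPM. The posterior determinant osk stood at 6.39 CPM there against 1.06, 0.331 and 0.470 CPM.

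Some abundant genes paired the libraries across the groups. In bt, zfh1, Nhe2 and EcR, control library 2 and 4-HT library 1 were the higher 2 of the 4. zfh1, a transcription factor gene, had 33.5 and 67.6 CPM in the controls and 76.7 and 39.7 CPM with 4-HT. Nhe2, a sodium-proton exchanger gene, had 96.8 and 185 CPM in the controls and 197 and 104 CPM with 4-HT. Genes differed by over 2-fold in 8.58% of those tested between control library 2 and 4-HT library 1, 15.8% between the controls and 12.7% between the 4-HT libraries. These genes were chosen after their values were seen.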
